A study of Mus musculus with 10 samples.

Results

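The neighbour genes of Mir34a described here are 10 protein-coding genes of mouse chromosome 4, namely Agtrap, Tmem201, Slc25a33, Spsb1, H6pd, Gpr157, Slc2a5, Slc2a7, Uts2 and Icmt. They were chosen by name, from their place near the Mir34a gene and with their difference between genotypes already known, so that difference is given below as a description and no test of it is read. They account for 10 of the 22180 genes to which the platform annotation gives exactly 1 symbol, and for 11 of 23521 such probe sets, Spsb1 having 2. All 10 passed the filter on dim genes, 10 of 16635 tested genes. RNA came from mouse embryos at E16.5, from respiratory epithelium of the nasal lining that was cut by laser capture out of formalin-fixed paraffin sections, and was read on Affymetrix arrays, 1 per embryo. The 5 TKO embryos (2 females and 3 males) were triple knockouts, with the alleles miR-34a-/-, miR-34b/c-/- and also miR-449a/b/c-/-. The 5 WT embryos (4 females and 1 male) were labelled wild-type. The labels give neither strain nor litter, so DNA inherited together with the targeted alleles and the loss of the microRNAs cannot be told apart in any difference near these loci.

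MicroRNAs are short RNAs that lower the level or translation of messenger RNAs with sites matching their seed. The miR-34 and miR-449 families have a seed in common and are abundant in cells that build many motile cilia, such as those of the airway lining, and miR-34a is also known as a transcriptional target of p53. Mir34a stands alone on chromosome 4, away from the other 2 loci on chromosomes 9 and 13. The mature 5′ strands are printed to show what all 3 loci have in common, with the seed (bases 2 to 8) in capitals, from RefSeq on GRCm38.p6.
miR-34a-5p (chr4:150068473-150068494, plus strand): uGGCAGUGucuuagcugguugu
miR-34b-5p (chr9:51103610-51103632, minus strand): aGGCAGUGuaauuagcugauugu
miR-449a-5p (chr13:113037549-113037570, plus strand): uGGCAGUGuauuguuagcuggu
miR-449c-5p (chr13:113036008-113036028, plus strand): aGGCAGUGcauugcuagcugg
All 4 have the seed GGCAGUG and differ from one another in the bases after it.

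All values are on the log2 scale of RMA, on which a difference of 1 is a doubling of the array signal. Differences are TKO minus WT from limma with labelled sex as a covariate, and a gene is called where the p-value adjusted over all tested genes (Benjamini-Hochberg) is below 0.05. In that fit 3483 of the 16635 tested genes had an unadjusted p below 0.05, the background for the counts of that kind given below. The arrays correlated with each other at 0.975 to 0.989 over all probe sets. As a check of the labels, Mir449c averaged 3.67 ± 0.49 in TKO and 7.26 ± 0.28 in WT embryos, and Mir449a 5.41 ± 0.29 in TKO and 7.20 ± 0.31 in WT embryos (SD, n = 5 each). Mir449b averaged 11.79 ± 0.17 in TKO and 12.17 ± 0.04 in WT embryos, a fitted difference of only -0.33 ± 0.07 (SE). Its signal stayed high in TKO embryos, so it checks the labels only weakly. Mir34b averaged 5.49 ± 0.07 in TKO and 5.76 ± 0.15 in WT embryos, and no TKO array reached the lowest WT array, but it was not called (limma adjusted p = 0.166). Mir34c, at 3.03 to 3.26 in TKO and 3.20 to 3.39 in WT embryos, and Mir34a, at 3.09 to 3.75 in TKO and 3.34 to 3.68 in WT embryos, overlapped between genotypes and lay below the filter on dim genes (4.58) on every array. Where these probe sets lie relative to the deletions is not given, so those of Mir34a and Mir34c check nothing. Of 8 general epithelium markers none was called either way by limma (1 at an unadjusted p below 0.05), and their score per embryo ran from -0.098 to 0.031 in TKO and from -0.055 to 0.079 in WT embryos. Over 11 marker lists, 3 of 9 multiciliated cell markers were called higher and 1 of 4 basal cell and 1 of 8 mesenchyme markers lower. The multiciliated list, 5 of 9 at an unadjusted p below 0.05 (limma), had a median difference of 0.07. Its score ran from -0.040 to 0.165 in TKO and from -0.170 to 0.057 in WT embryos. Not all its markers rose, as Hydin averaged 9.26 in TKO and 9.83 in WT embryos. No marker was called in the other 8 lists (10 of 41 at an unadjusted p below 0.05). Of the mesenchyme markers, 4 of 8 were at an unadjusted p below 0.05 (limma). The median fitted difference was -0.44 for mesenchyme, -0.59 for skeletal muscle and -0.38 for endothelium. It was -0.29 for leukocytes and erythroid cells, -0.26 for cartilage and bone and -0.06 for glia. Scores, not adjusted for sex, were on average higher in TKO for cartilage and bone (0.10) and leukocytes and erythroid cells (0.05). Skeletal muscle markers, 5 of 6 at an unadjusted p below 0.05, had a score from -0.607 to 0.23 in TKO and from -0.535 to 1.05 in WT embryos. Secretory cell markers, 3 of 6 at an unadjusted p below 0.05, had a score from -0.048 to 0.381 in TKO and from -0.708 to 0.192 in WT embryos. Olfactory neuron markers, 0 of 4 at an unadjusted p below 0.05, had a score from -0.812 to 0.635 in TKO and from -0.763 to 1.47 in WT embryos. The part of these cell types in the members' differences was not tested beyond the non-epithelial score given with Slc25a33. That score holds the muscle list and neither the secretory cell nor the olfactory neuron list.

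Among the 10 members, Agtrap and Icmt were higher in the TKO epithelium, Uts2 was lower, and the other 7 were not called. That makes 3 of 10 called, where 5.51% of all tested genes were, 4.39% higher and 1.12% lower. Since the members were chosen on this contrast, nothing is read from that share. The median difference of the members was 0.02 and the median size of their differences 0.249, beside -0.0005 and 0.116 over all tested genes. Only the arrays of Agtrap and Icmt did not overlap between genotypes, both with TKO above WT, and 7.6% of all tested genes did not overlap in one direction or the other.

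Counting protein-coding genes outward from Mir34a, the lower-coordinate side begins with H6pd, Spsb1, Slc25a33 and Tmem201, at places 1 to 4, and Agtrap stands at place 34. The higher-coordinate side begins with Gpr157, Slc2a5 and Slc2a7, at places 1 to 3, with Uts2 at place 12 and Icmt at place 31. The first 4 genes on the lower side and the first 3 on the higher side are all members, while Uts2, Icmt and Agtrap were picked from farther away with their differences known, so the places of the called members follow from the choice and nothing is read from them.

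**Figure D1:**
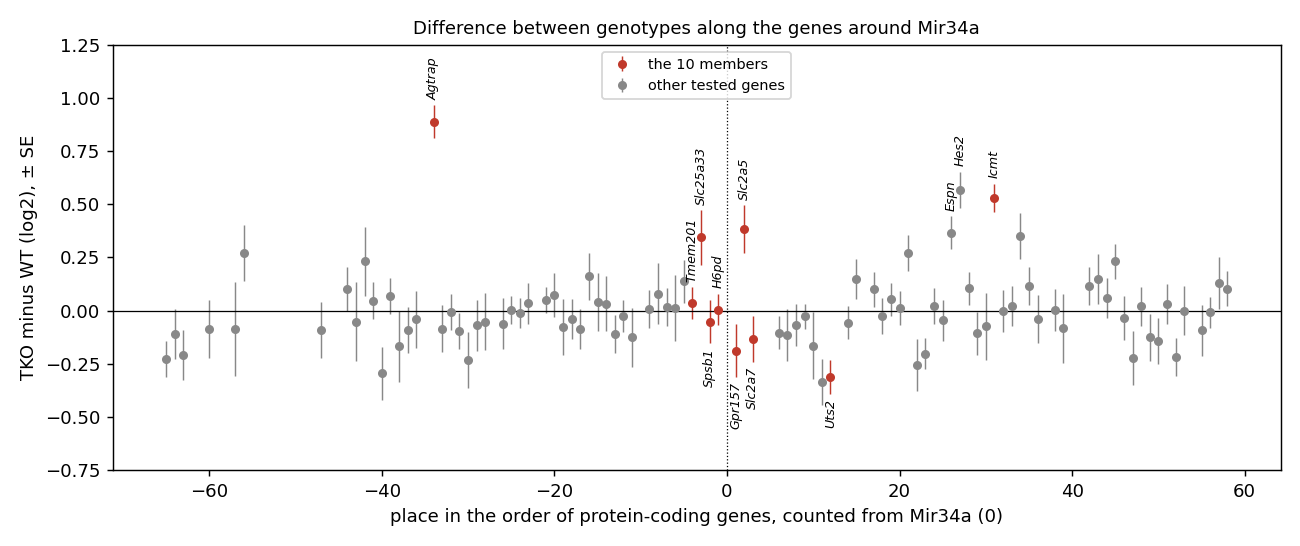
Differences between genotypes (TKO minus WT, log2 RMA values, vertical axis) of the tested genes around Mir34a, drawn in the order of protein-coding genes counted from Mir34a (horizontal axis, Mir34a at 0). Points are fitted differences, bars their standard error, with the 10 members in red, other genes in grey. Agtrap (place 34, lower side) and Icmt (place 31, higher side), picked with their differences known, stand above the genes beside them. The 7 members next to Mir34a lie between -0.19 and 0.38.

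Agtrap encodes a transmembrane protein that binds the type 1 angiotensin II receptor and promotes its internalisation. It read 8.02, 8.04, 8.15, 7.97 and 7.92 in TKO embryos 1 to 5, and 7.18, 7.39, 7.02, 7.24 and 7.12 in WT embryos 1 to 5. Every TKO array lay above every WT array, with a gap of 0.54 between the lowest TKO and the highest WT array. The means were 8.02 ± 0.09 in TKO and 7.19 ± 0.14 in WT embryos (SD, n = 5 each), and the fitted difference was 0.89 ± 0.08 (SE, 95% interval 0.72 to 1.06), a 1.85-fold higher signal. By size of difference it ranked 132 of 16635 tested genes. The difference stayed between 0.82 and 0.94 in 23 alternative settings and was called in all 23, including those that left out each array in turn. For this and the other members, such refits use the arrays on which the members were chosen. They describe how the values depend on the processing and do not test the difference.

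Agtrap is transcribed from the minus strand. The 250 bases before its annotated start (chr4:148088065-148088314, GRCm38.p6, RefSeq) are printed because this gene had the largest difference of the 10, with an E-box CACGTG in capitals.
Agtrap upstream: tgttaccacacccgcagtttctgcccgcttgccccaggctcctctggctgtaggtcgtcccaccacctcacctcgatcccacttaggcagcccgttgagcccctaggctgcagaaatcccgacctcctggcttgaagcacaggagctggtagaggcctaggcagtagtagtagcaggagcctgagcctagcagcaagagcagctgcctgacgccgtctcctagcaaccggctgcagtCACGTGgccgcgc
This palindromic E-box, read on both strands, occurs in 6.0% of the 32851 windows of 250 bases before annotated mouse gene starts, and among the members in those of Agtrap and Slc25a33. These windows were not filtered by gene type, while all 10 members are protein-coding. The GC box GGGCGG, searched on both strands, occurs in 6 of the 10 members' windows and in 32.7% of all windows, and CCAAT, also on both strands, in 4 of 10 and in 33.8% of all. Agtrap's window holds neither. No element searched was present in the windows of all 3 called members.

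Icmt encodes the enzyme of the endoplasmic reticulum that methylates the carboxyl end of prenylated CAAX proteins such as Ras and the B-type lamins. It read 7.70, 7.81, 7.72, 7.73 and 7.81 in TKO embryos 1 to 5, and 7.15, 7.25, 7.30, 7.14 and 7.08 in WT embryos 1 to 5. Again no WT array reached the lowest TKO array, and the gap was 0.40. The means were 7.76 ± 0.05 in TKO and 7.19 ± 0.09 in WT embryos (SD, n = 5 each), and the fitted difference was 0.53 ± 0.07 (SE, 95% interval 0.38 to 0.67), 1.44-fold. It stayed between 0.48 and 0.57 in 23 alternative settings and was called in 22. The exception was the fit on the 6 female embryos alone, with a difference of 0.56. The window before its start was the richest in G and C among the members, at 77.2%. The median was 52.4% over all windows, which were not filtered by gene type.

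Uts2 encodes the precursor of urotensin II, a small cyclic peptide known for constricting blood vessels. It read 5.87, 6.01, 5.92, 6.12 and 6.003 in TKO embryos 1 to 5, and 6.28, 6.31, 6.33, 6.21 and 6.08 in WT embryos 1 to 5. The genotypes overlapped, since TKO 4 lay above WT 5. The means were 5.99 ± 0.10 in TKO and 6.24 ± 0.10 in WT embryos (SD, n = 5 each), and the fitted difference was -0.31 ± 0.08 (SE, 95% interval -0.49 to -0.14). The sign held in all 23 alternative settings, from -0.34 to -0.26, but the gene was called in only 7 of them and, with 1 array left out, only without WT 5 or TKO 4. Per3, the circadian period gene directly before Uts2 on the chromosome and named here after its value was seen, differed by -0.34 ± 0.11 (SE) and was not called.
The 250 bases before Uts2's start (chr4:150996847-150997096, plus strand, GRCm38.p6, RefSeq), shown as those of the only lower member, hold 38.8% G and C, with CCAAT in capitals.
Uts2 upstream: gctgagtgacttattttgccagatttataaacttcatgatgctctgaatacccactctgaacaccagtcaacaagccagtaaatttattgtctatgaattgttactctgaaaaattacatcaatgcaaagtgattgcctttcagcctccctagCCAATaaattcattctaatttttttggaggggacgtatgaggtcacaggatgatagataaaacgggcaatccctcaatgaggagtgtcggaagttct
Agtrap's window holds 62.8% G and C.

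**Figure D2:**
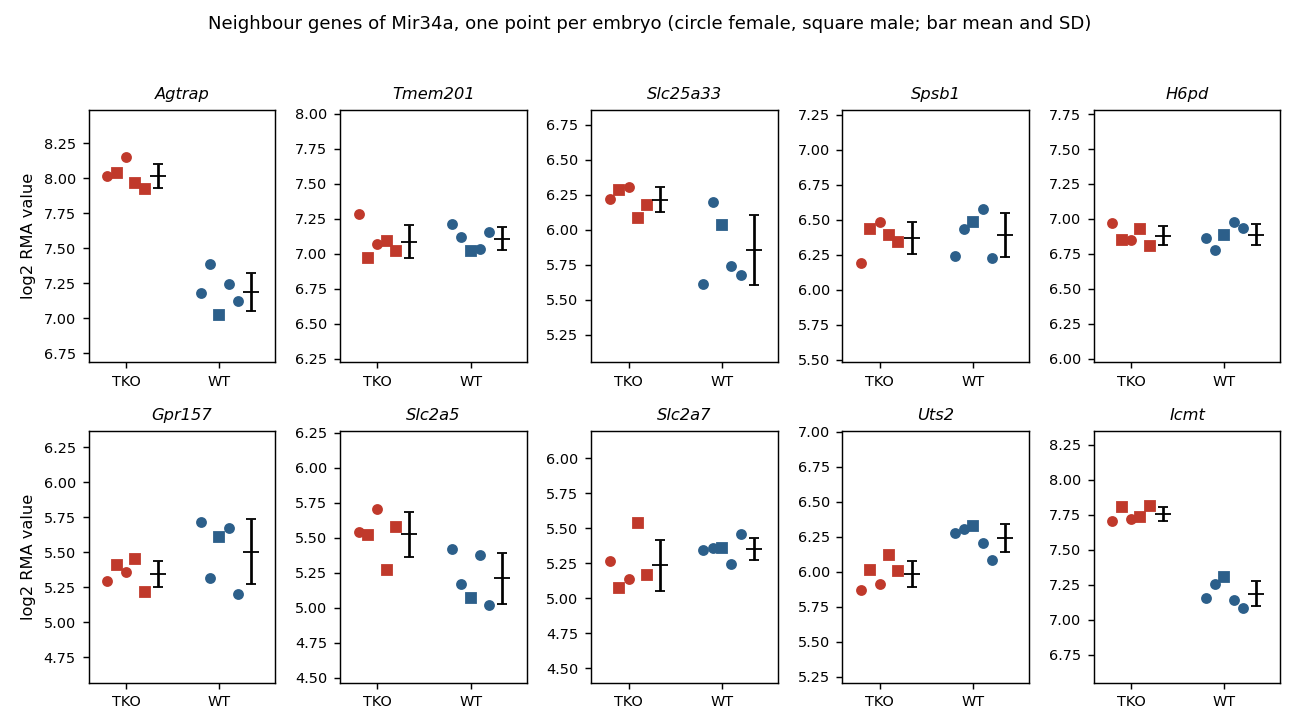
Log2 RMA values of the 10 members (vertical axis), 1 point per embryo, TKO in red left of WT in blue, circles for females and squares for males, with a bar at the mean and SD of each genotype (n = 5); all panels span the same number of log2 units. Agtrap and Icmt have a clear space between the genotypes (0.54 and 0.40), and in the other 8 panels the points of the genotypes overlap.

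Both facilitative sugar transporters of the group lie side by side next to Gpr157 and read low. Slc2a5 encodes GLUT5, the fructose transporter. It read 5.54, 5.52, 5.71, 5.27 and 5.58 in TKO embryos 1 to 5, and 5.42, 5.17, 5.07, 5.38 and 5.02 in WT embryos 1 to 5. Only TKO 4 lay within the range of the WT arrays. The fitted difference was 0.38 ± 0.11 (SE, 95% interval 0.14 to 0.63), 1.30-fold, and it was not called in the reported fit or in any of 22 alternatives. Slc2a7 encodes the related hexose transporter GLUT7. It read 5.26, 5.07, 5.14, 5.54 and 5.17 in TKO embryos 1 to 5, and 5.34, 5.36, 5.36, 5.25 and 5.46 in WT embryos 1 to 5. TKO 4, the lowest of its genotype for Slc2a5, was the highest of all arrays for Slc2a7. The fitted difference of Slc2a7 was -0.13 ± 0.11 (SE, 95% interval -0.37 to 0.10).

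Slc25a33 encodes a carrier of the inner mitochondrial membrane that brings pyrimidine nucleotides into mitochondria. It read 6.22, 6.29, 6.31, 6.09 and 6.18 in TKO embryos 1 to 5, and 5.62, 6.20, 6.03, 5.74 and 5.68 in WT embryos 1 to 5. The TKO arrays sat close together and only WT 2 reached into their range. The SD was 0.09 in TKO and 0.25 in WT embryos, and the fitted difference was 0.34 ± 0.13 (SE, 95% interval 0.065 to 0.62), not called. In the females alone it was 0.45. With a score of non-epithelial markers added to the model, chosen after seeing the data, it was 0.12. That score, a mean over the lists for mesenchyme, endothelium, skeletal muscle, cartilage and bone, leukocytes and erythroid cells, and glia, ran from -0.575 to 0.351 in TKO and from -0.537 to 0.473 in WT embryos. By sex, the TKO females had -0.402 and -0.575, and the WT females ran from -0.537 to 0.374. The TKO males ran from 0.035 to 0.351, and the 1 WT male had 0.473. With the same covariate Agtrap differed by 0.82 and Icmt by 0.48, both still called, and Uts2 by -0.33, not called. In such bulk samples, a change in the number of cells of a type and a change in RNA per cell cannot be told apart.

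Gpr157 encodes an orphan receptor coupled to G proteins, reported in mouse radial glia at the primary cilium. It read 5.29, 5.41, 5.36, 5.45 and 5.21 in TKO embryos 1 to 5, and 5.71, 5.31, 5.61, 5.67 and 5.20 in WT embryos 1 to 5. WT 1, WT 3 and WT 4 lay above every TKO array, WT 2 lay within the TKO range and WT 5 just below it. The fitted difference was -0.19 ± 0.12 (SE, 95% interval -0.46 to 0.081), and it was -0.05 once the non-epithelial score was added to the model.

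H6pd and Tmem201 had the smallest fitted differences of the members. H6pd, which makes NADPH inside the endoplasmic reticulum from hexose-6-phosphates, read 6.80 to 6.97 in TKO and 6.78 to 6.98 in WT embryos, with a difference of 0.01 ± 0.08 (SE, 95% interval -0.16 to 0.17). Tmem201, a protein of the inner nuclear membrane that takes part in moving the nucleus, read 6.97 to 7.29 in TKO and 7.02 to 7.21 in WT embryos, with a difference of 0.03 ± 0.08 (SE, 95% interval -0.13 to 0.20). Its plain means, 7.09 in TKO and 7.11 in WT embryos, ran the other way, as the fitted value is adjusted for sex. These intervals still allow differences of up to 0.20.

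Spsb1 is the substrate-binding part of a ubiquitin ligase, known for taking inducible nitric oxide synthase to degradation, and was the only member with more than 1 probe set. The brighter probe set read 6.19, 6.44, 6.48, 6.39 and 6.34 in TKO embryos 1 to 5, and 6.24, 6.43, 6.48, 6.58 and 6.23 in WT embryos 1 to 5. Its fitted difference was -0.05 ± 0.10 (SE, 95% interval -0.27 to 0.17). The dimmer one read 5.43, 5.84, 6.06, 5.89 and 6.27 in TKO embryos 1 to 5, and 5.90, 6.20, 6.39, 6.03 and 5.86 in WT embryos 1 to 5, a difference of -0.30 ± 0.14 (SE) in the fit over all probe sets, not called. The mean of both probe sets differed by -0.18, so the size of the Spsb1 difference depends on the probe set. Which transcripts or strand each probe set reads is not given, so this mean may not describe the Spsb1 message. The genotypes overlapped on both probe sets, and TKO 1 was the lowest array on each.

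**Figure D3:**
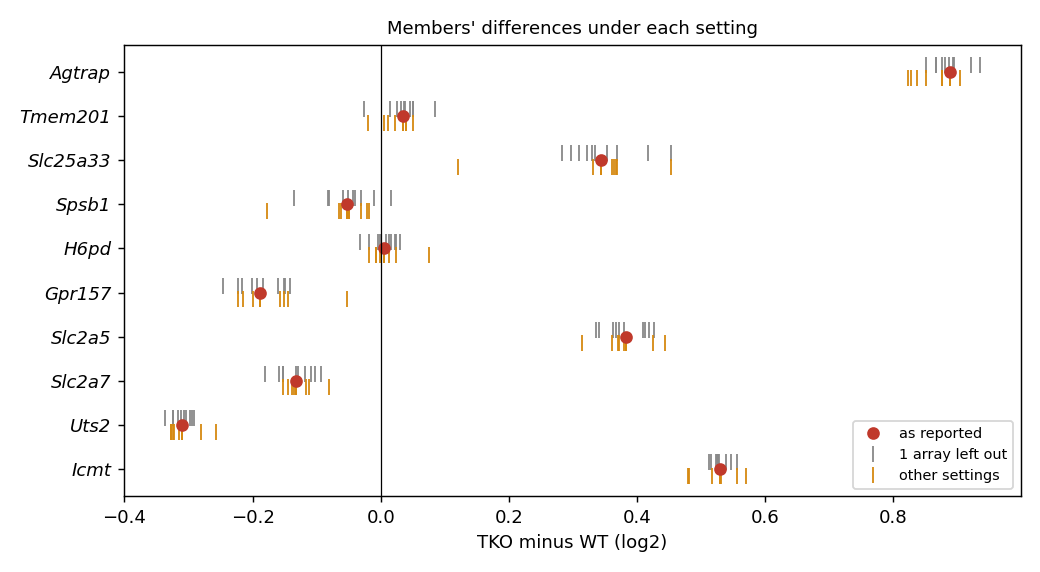
Each member's difference between genotypes (TKO minus WT, log2, horizontal axis) as reported (red point), with 1 array left out (grey marks) and under the other settings (orange marks). Agtrap (0.82 to 0.94) and Icmt (0.48 to 0.57) stay well above 0 and Uts2 (-0.34 to -0.26) below it, while the marks of Tmem201, Spsb1 and H6pd fall on both sides of 0.

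Taken by position alone, with the members included, 103 genes within 5 Mb of Mir34a were tested, of which 4 were called higher in TKO and 1 lower, a share of 4.85% beside 5.51% over all genes. Their median difference was -0.02. Within 2 Mb 1 of 51 was called higher (Agtrap) and 1 lower (Uts2), and within 10 Mb 5 of 199 were called higher and 3 lower. With the members left out, which removes 3 called genes by a choice that knew their values, 2 of 93 within 5 Mb were called, both higher. The count by position within 5 Mb of Mir34b and Mir34c was 9 higher and 4 lower of 82, a share of 15.9%. Within 5 Mb of the Mir449 cluster it was 6 higher and none lower of 37, a share of 16.2%. Both shares were above the 5.51% over all genes, and the cause was not tested. The nearest genes outside the members differed by 0.14 for Pik3cd, 0.01 for Clstn1 and 0.02 for Ctnnbip1 on the lower-coordinate side, and by -0.10 for Rere and -0.11 for Slc45a1 on the higher-coordinate side, none called. Car6, the closest on that side, read 3.50 to 4.00 in TKO and 3.44 to 3.95 in WT embryos, below the filter.

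The 2 called neighbours, Hes2 and Espn, lie next to each other and near Icmt, at places 27 and 26 on the higher-coordinate side. Hes2 encodes a basic helix-loop-helix repressor of the Hes family. It read 6.77, 6.73, 6.76, 6.79 and 6.61 in TKO embryos 1 to 5, and 6.31, 6.28, 5.99, 6.37 and 6.18 in WT embryos 1 to 5, so the genotypes did not overlap. The difference was 0.57 ± 0.08 (SE, limma adjusted p = 0.0035), 1.48-fold, and Hes2 was called in 22 of 23 alternative settings, the females alone being the exception (0.48). Espn encodes espin, which bundles actin filaments in microvilli and stereocilia. It read 7.61, 7.50, 7.64, 7.45 and 7.48 in TKO embryos 1 to 5, and 7.08, 7.18, 7.29, 7.25 and 7.10 in WT embryos 1 to 5, also without overlap. The difference was 0.37 ± 0.08 (SE, limma adjusted p = 0.0199), 1.29-fold. Espn was called in 19 of 23 settings. It was not called in the females alone, with the non-epithelial score (0.35), without TKO 1 or without TKO 3.

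The genes between Hes2 and Icmt did not follow them. Named by their place after the values of Icmt were known, Acot7 differed by 0.10 ± 0.08, Gpr153 by -0.11 ± 0.10 and Hes3 by -0.07 ± 0.16 (SE), none called. Beyond Icmt, Rnf207 differed by -0.003 ± 0.10, Rpl22 by 0.02 ± 0.09 and Chd5 by 0.35 ± 0.11, also not called. Around Agtrap, the 5 measured genes among the nearest 3 on each side were Nppa, Clcn6, Draxin, Mad2l2 and Fbxo6, with differences between -0.10 and -0.005, none called. No measured gene in these ranges was called besides Agtrap and Icmt. Both were picked with their differences known, so nothing is read from this. The called Hes2 lies just outside the range around Icmt.

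**Figure D4:**
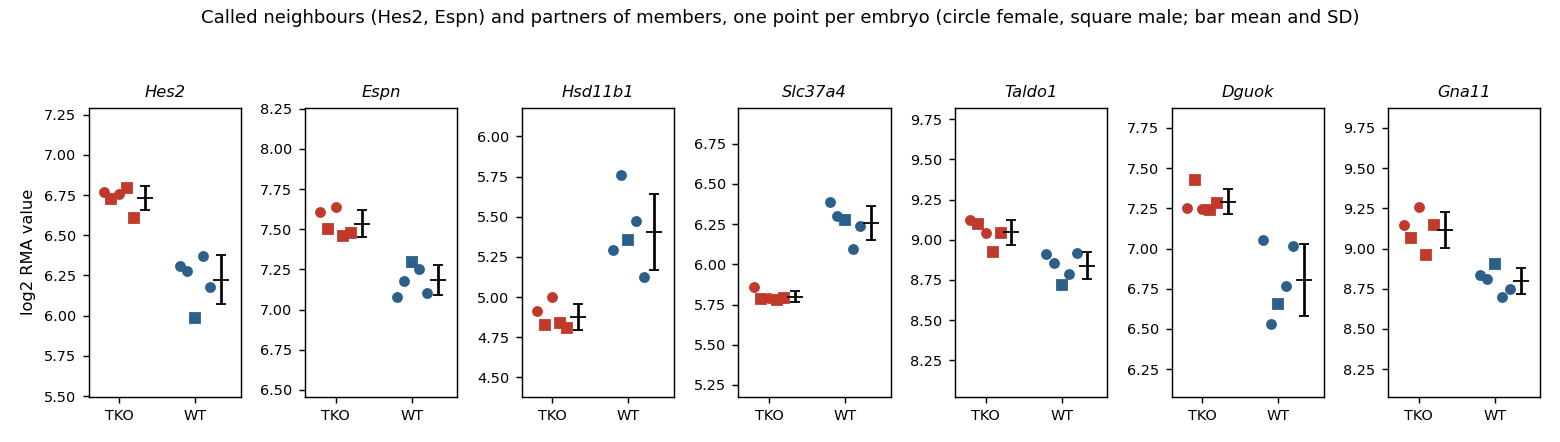
Log2 RMA values (vertical axis) of the called neighbours Hes2 and Espn and of the called partners of members, 1 point per embryo, TKO in red left of WT in blue, circles for females and squares for males, bars at the mean and SD of each genotype (n = 5). In each of the 7 panels the genotypes do not overlap, with TKO below WT for Hsd11b1 and Slc37a4 and above WT for the other 5.

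Partners of the members in 8 lists of pathway genes gave 3 genes called higher and 2 called lower of 87 tested, 5.75%, close to the 5.51% over all genes, with a median difference of -0.01. At an unadjusted p below 0.05 (limma) were 19 of the 87, beside 3483 of 16635 over all genes. The lists were compiled with earlier results of these data known. Most partner calls fell in the list built around H6pd, the pentose phosphate pathway and its branch in the endoplasmic reticulum, with 1 higher and 2 lower of 10 and a median of -0.03. Slc37a4, which carries glucose-6-phosphate into the endoplasmic reticulum, read 5.86, 5.78, 5.79, 5.78 and 5.79 in TKO embryos 1 to 5, and 6.39, 6.30, 6.28, 6.10 and 6.24 in WT embryos 1 to 5. The difference was -0.45 ± 0.08 (SE, limma adjusted p = 0.00943), and the gene lies within 10 Mb of Mir34b and Mir34c. Its call was lost in 4 of 23 settings, those with females only, with the non-epithelial score, without WT 3 and without TKO 3. Hsd11b1, the reductase that uses the NADPH made by H6pd to form active glucocorticoid, read 4.91, 4.83, 5.00, 4.84 and 4.81 in TKO embryos 1 to 5, and 5.29, 5.76, 5.36, 5.48 and 5.13 in WT embryos 1 to 5. The difference was -0.48 ± 0.12 (SE, limma adjusted p = 0.0416), called in 8 of 22 other settings and, with 1 array left out, only without WT 2 or WT 5. Taldo1, the transaldolase of the pentose phosphate pathway, averaged 9.05 ± 0.08 in TKO and 8.84 ± 0.08 in WT embryos (SD, n = 5 each), a difference of 0.25 ± 0.06 (SE, limma adjusted p = 0.0470) that was called in 6 of 23 other settings and, with 1 array left out, only without WT 5 or TKO 4.

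The lists built around the called members showed little. None of 7 tested genes of the renin-angiotensin system was called (0 at an unadjusted p below 0.05), and Agtr1a, the receptor that Agtrap binds, averaged 5.23 ± 0.14 in TKO and 5.01 ± 0.18 in WT embryos (SD, n = 5 each). None of 11 CAAX processing genes was called beside Icmt (2 at an unadjusted p below 0.05), and their median difference was 0.001. Nras, a Ras protein that Icmt methylates, had the smallest p of this list. It averaged 9.03 ± 0.07 in TKO and 9.28 ± 0.07 in WT embryos, a difference of -0.25 (limma adjusted p = 0.0512). Its genotypes did not overlap, as in 7.6% of all tested genes. Of the other tested CAAX proteins, Rhoa differed by 0.05, Rac1 by 0.001, Lmnb1 by 0.11 and Lmnb2 by -0.13, none called. Of 10 genes around urotensin and Gq-coupled signalling, Gna11, a Gq-class alpha subunit, was higher in TKO by 0.33 ± 0.08 (SE, limma adjusted p = 0.0260), and the urotensin receptor gene Uts2r averaged 4.91 ± 0.17 in TKO and 4.94 ± 0.08 in WT embryos. Gna11 lost its call in 5 of 23 settings, among them without WT 4, TKO 1 or TKO 3. The median of this list was -0.02, and that of the renin-angiotensin list -0.01.

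In the list of mitochondrial nucleotide supply around Slc25a33, 1 of 12 was called. This was Dguok, the mitochondrial deoxyguanosine kinase, which averaged 7.29 ± 0.08 in TKO and 6.80 ± 0.23 in WT embryos (SD, n = 5 each), a difference of 0.50 ± 0.11 (SE, limma adjusted p = 0.0268) called in 15 of 23 other settings. With 1 array left out, its call was lost without WT 3, WT 4, TKO 1, TKO 2 or TKO 3. The median of this list was -0.02. None of 13 genes of hexose transport and fructose use was called (1 at an unadjusted p below 0.05), with a median of -0.13. None of 11 genes of the SPRY/SOCS-box ubiquitin ligase was called (6 at an unadjusted p below 0.05), with a median of 0.16, and Nos2, the synthase that Spsb1 binds, differed by -0.42 ± 0.17 (SE). None of 13 genes of the nuclear envelope was called (2 at an unadjusted p below 0.05), with a median of 0.002.

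Sex was a contrast that did not enter the choice of members. Over all genes 0.0361% were called between males and females. No member was called (limma, 0 at an unadjusted p below 0.05), with differences, male minus female, from -0.17 for Slc2a5 to 0.14 for Uts2. The difference between genotypes was not called as differing by sex for any member either (0 at an unadjusted p below 0.05), in a design with only 1 WT male. The interaction for Agtrap was 0.10 ± 0.17 and for Icmt -0.07 ± 0.15 (SE), and the females alone gave 0.85 for Agtrap.

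Within genotypes the members did not vary as a block. Residuals from sex and genotype over the 10 arrays, which share their tissue, capture and normalization, correlated in 45 pairs of members with a median r of 0.079, and 24 pairs were above 0. The highest was 0.87 between Slc25a33 and Icmt, and the lowest -0.84 between Spsb1 and Tmem201. Slc2a5 and Slc2a7, direct neighbours, correlated at -0.77, and Agtrap and Icmt at 0.59. Over all tested genes, those closest to Agtrap in these residuals were Eif2b4 (r = 0.96), Tmem138 (0.96) and Dglucy (0.95), and those closest to Icmt were Rsph3b (0.95), Ttc9 (0.95) and Ybx2 (0.95). The median over all tested genes of a gene's best match was 0.97 on the same 10 arrays, above the best matches of Agtrap and Icmt.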

How the data were processed

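The deposited log2 values were made by the authors with RMA in the Affymetrix Expression Console, per the submitters' processing notes (versions not given in the sources used here), which corrects background, brings arrays to a common distribution and summarises probes. The scale was taken to be log2 from the range of the values, 1.50 to 13.67. Of 41345 probe sets, 23521 had 1 symbol in the platform annotation, 1814 several and 16010 none. RefSeq (GRCm38.p6) placed 21991 genes by Entrez ID. The table served for gene order and windows only, because no source used here names the build of the array. The sequences printed carry coordinates of the RefSeq build.

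The probe set with the highest mean was kept per gene, and genes below the 25th percentile (log2 4.58) were left out. Limma 3.58.1 in R 4.3.3 fitted labelled sex and genotype over all 10 arrays with a variance trend (two-sided, Benjamini-Hochberg over 16635 genes, threshold 0.05). Targeted microRNA genes and probe sets not kept came from the same model without the filter. The p-values set each difference against the spread between these embryos, taken as independent. Litters are not labelled, and if some embryos were littermates the p-values could be too small. The number of arrays limits the precision. Scores are means over a marker list of values centred per gene.

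The members, lists and tests were chosen with earlier results of these data known. Named were all members, the targeted microRNA genes, the nearest 3 other genes on each side, called genes within 5 Mb without systematic names, called list genes, and the 3 genes with the most similar residuals. Others named are marked, were asked for by a count, or are the direct partner of a member. The script was tested on simulated arrays. Alternatives were a model without sex, a replicate block, other filters, scalings and variance models, array weights, probe set rules, females only, each array left out and other windows. Figures were drawn with matplotlib 3.10.9.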

Additional observations from a re-analysis of the deposited data

Results flagged for a closer look

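In 60 groups of 5 arrays, the members, targeted microRNA genes, nearest genes and called genes of each genotype, a single array standing far from the other 4 was looked for, which chance gives in about 1 of 20 groups. It was found in 3. Mir449b read 12.08 in TKO 1, with the next TKO array at 11.76. Slc37a4 read 5.861 in TKO 1, with the next at 5.788. Dguok read 7.425 in TKO 2, with the next at 7.282. No probe set of a member had such an array.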

How the results depend on the processing

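Agtrap, Icmt and Uts2 kept their direction in every alternative tried, and all other members did except H6pd (8 of 23 settings with the other sign), Tmem201 (2) and Spsb1 (1), none of which was called. In the females only, 56 genes were called over all (916 as reported), 1 member (3), 0 neighbours within 5 Mb (2, with 3 at an unadjusted p below 0.05 in limma) and 0 partner genes (5, with 14 at an unadjusted p below 0.05). Over all genes 2503 had an unadjusted p below 0.05 in that limma fit. With the non-epithelial score, added after seeing the data, 146 genes were called over all, 1 neighbour (Hes2) and 0 partner genes (13 at an unadjusted p below 0.05). Here 2306 genes over all had an unadjusted p below 0.05 (limma). With 1 array left out, 210 (without WT 3) to 1284 (without WT 5) genes were called over all, with 307 without TKO 3 and 552 without TKO 1; 2 to 3 members; 1 (without TKO 1 or TKO 3) to 3 neighbours; and 0 (without TKO 3, 13 at an unadjusted p below 0.05) to 8 (without WT 5) partner genes. The partner count was 1 without WT 3 or WT 4, 2 without TKO 1 or TKO 2, and 3 without WT 1 or TKO 5. It was also 3 without the filter on dim genes and with every probe set tested on its own. With the members left out, which removes called genes by choice, 0 neighbours were called within 2 Mb (3 at an unadjusted p below 0.05) and 5 within 10 Mb. Fewer arrays are fitted in the females only and with 1 array left out, yet the count without WT 5 was above the 916 as reported. WT 3 is the only WT male. The cause of these changes was not tested. The labels do not say whether replicate numbers pair the embryos. Same-numbered deviations correlated at -0.085, -0.059, -0.127, 0.379 and -0.063, and only number 4 matched its own best. As litters are not labelled, these values cannot exclude a pairing. With the replicate number as a block, 1053 genes were called over all, 2 members, 2 neighbours and 3 partner genes.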
